A study of Rattus norvegicus with 36 samples.

Results

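The livers compared here are 8 livers with high Abhd3 signal and 28 livers with low Abhd3 signal, of 36 livers in all. They were chosen by measured expression, from the brighter of the gene's 2 probe sets: a log2 expression value above 5 placed a liver in the high set and a value of 5 or below placed it in the low set. These sets were made from measured values and are not groups of the study. The study gave male Harlan Sprague Dawley rats, aged 7 weeks at the start, the brominated flame retardant TBBPA-DBPE (tetrabromobisphenol A-bis(2,3-dibromopropyl ether)) by gavage on 5 consecutive days. Corn oil was the vehicle, and each of the 6 groups held 6 animals on the same diet: vehicle alone, or 943, 94.3, 9.4, 0.94 or 0.1 mg/kg. Livers were taken the day after dosing ended, and RNA of the left lobe of each animal was hybridised to 1 Affymetrix rat array, so 1 animal is 1 sample. All animals shared strain, sex, age, diet and corn oil, and the sources used here give no litter, cage or scan batch.

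Abhd3 encodes a membrane-bound hydrolase of the alpha/beta hydrolase domain (ABHD) family. The enzyme is a phospholipase that cleaves phosphatidylcholines carrying medium-chain or oxidatively truncated acyl chains, releasing lysophosphatidylcholine and a fatty acid. Phosphatidylcholine is the main phospholipid of hepatocyte membranes and of the lipoproteins and bile that the liver secretes.

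The promoters of the gene pair that the comparison turns on are shown first: Abhd3 itself and LOC100909782, a long non-coding RNA on the same chromosome that was the only gene to pass the test described further on. Each is the RefSeq sequence of the 250 bases before the annotated start on assembly GRCr8, on the minus strand of chromosome 18, at chr18:2051290-2051539 for Abhd3 and chr18:2460178-2460427 for LOC100909782. Capitals mark GGGCGG, the core of a GC box.
Abhd3: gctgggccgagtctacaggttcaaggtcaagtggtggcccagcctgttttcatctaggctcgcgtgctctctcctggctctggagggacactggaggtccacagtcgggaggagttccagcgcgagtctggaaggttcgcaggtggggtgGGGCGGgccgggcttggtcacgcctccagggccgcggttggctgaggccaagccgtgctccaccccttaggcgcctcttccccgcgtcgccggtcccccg
LOC100909782: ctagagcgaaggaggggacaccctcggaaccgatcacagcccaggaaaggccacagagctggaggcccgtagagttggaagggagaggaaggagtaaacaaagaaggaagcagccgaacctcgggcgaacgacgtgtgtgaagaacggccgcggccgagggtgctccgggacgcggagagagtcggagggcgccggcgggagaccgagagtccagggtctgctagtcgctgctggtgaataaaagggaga
Both windows are rich in the CG dinucleotide, with 19 CG pairs for Abhd3 and 22 for LOC100909782 against a median of 5 over 33469 promoter windows of the same length. GGGCGG, searched on both strands, occurred 1 time in the Abhd3 window and 0 times in the LOC100909782 window, and 30.5% of all windows held it. Neither window held TATAAA (12.9% of all windows) or CCAAT (34.0% of all windows), also searched on both strands. The table holds 2 windows for LOC100909782, of which 1 is shown. These matches describe the letters of the windows, which are reference sequence and not that of the animals studied.

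Abhd3 signal was either near the bottom of the array's scale or well above its middle, with no liver in between. In the 8 high livers, the brighter probe set read 7.11 and 6.89 in vehicle replicates 3 and 4 and 7.17 in replicate 6 at 0.1 mg/kg. It read 7.22 and 6.77 in replicates 2 and 5 at 0.94 mg/kg and 7.87 in replicate 1 at 9.4 mg/kg. The remaining high livers were replicate 6 at 94.3 mg/kg, with 7.08, and replicate 5 at 943 mg/kg, with 7.40. In the 28 low livers the lowest value was 2.33, the median 2.60 and the highest 2.83. The liver just below the threshold thus stood at 2.83 and the liver just above it at 6.77, a gap of 3.95 log2 units, while the next largest gap between neighbouring livers was 0.47. The high livers averaged 7.19 ± 0.34 (SD, n = 8) and the low livers 2.60 ± 0.14 (SD, n = 28). With dose group as a covariate the sets differed by 4.62 log2 units, or 24.5-fold. Array medians lay between 4.59 and 4.66, so the low livers sat below the middle of the array and the size of the fold is uncertain. Since this gene made the split, these values are a description without a test.

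The dimmer probe set of Abhd3 was low everywhere and separated the sets in part. It read 3.04 at the lowest, 3.24 at the median and 3.58 at the highest in the high livers. In the low livers it read 2.47, 2.84 and 3.18. Of the 8 high livers, 6 lay above the whole range of the low livers, while vehicle replicate 1, a low liver, read 3.18 and so lay above high vehicle replicate 3 at 3.04, and the difference was 0.48 log2 units, also given without a test because it reads the same gene. Within each dose group its high livers averaged above its low livers, by 0.28 in vehicle animals and by 0.46 to 0.71 at the 5 doses.

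**Figure D1:**
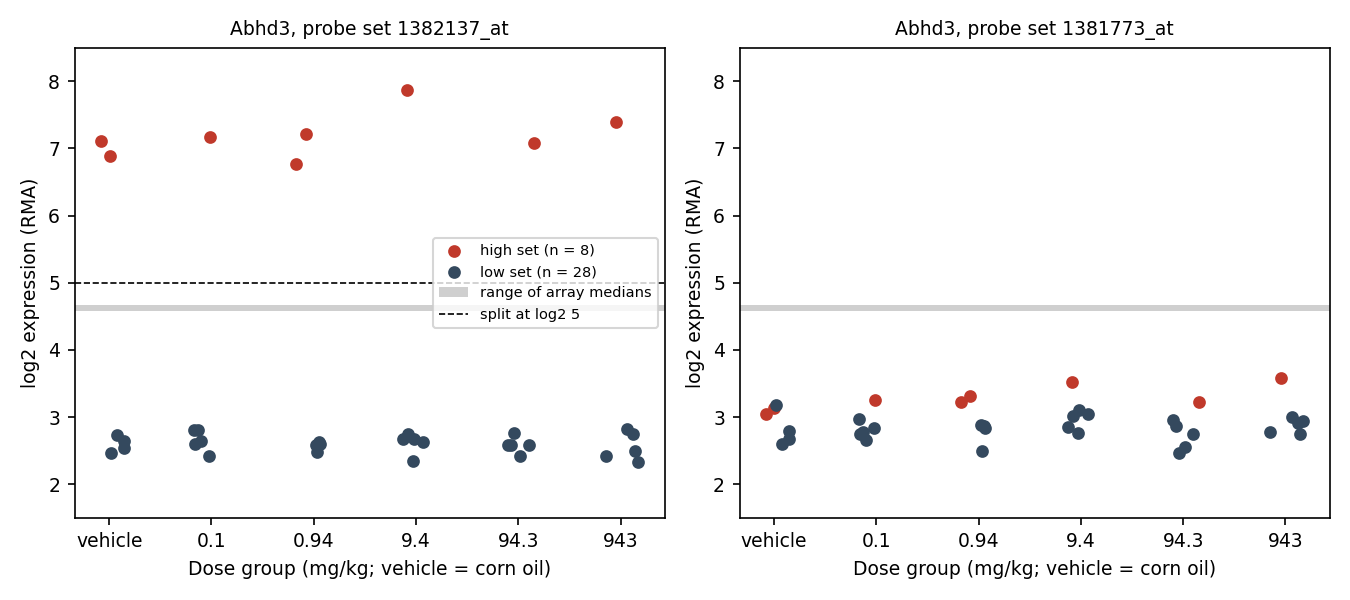
Log2 expression (vertical axes) of the 2 Abhd3 probe sets in each of the 36 livers by dose group in mg/kg (horizontal axes), with high livers in red, low livers in dark blue, the range of array medians as a grey band and the split at log2 5 as a dashed line. Every dose group holds 1 or 2 high livers by the brighter probe set (left), at 6.77 or above, and all others lie at 2.83 or below, while the dimmer one (right) stays between 2.47 and 3.58.

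High livers occurred at every dose. Vehicle and 0.94 mg/kg had 2 of 6 each, and 0.1, 9.4, 94.3 and 943 mg/kg had 1 of 6 each. A permutation test of the split over dose groups (chi-square statistic, 100000 resamples) gave p = 1. The high livers could not have been spread more evenly over the groups, so no resample could give a smaller statistic. That p only restates the even spread. The correlation of the high set with dose rank was r = -0.12, with a two-sided permutation p = 0.572. In the moderated linear model of limma, Abhd3 by the brighter probe set differed from vehicle by -0.65, -0.01, -0.57, -0.73 and -0.69 log2 units from the lowest to the highest dose, each with SE 1.10. The limma adjusted p-values were 0.980, 0.999, 0.982, 0.938 and 0.945. An SE of that size comes from the spread between animals of a gene with both levels in every group. Each group mean here follows how many of its 6 animals were high. The 6 animals of a group limit what could be seen, and these data do not show that dose has no effect on the share. By the dimmer probe set, the 5 doses differed from vehicle by -0.10 to 0.15 with SE 0.15, and none passed the test.

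Outside Abhd3, the high and low livers differed in very little that this design could call. Of 31040 other probe sets, 2 (0.00644%) passed an adjusted p of 0.05 in limma with dose group as covariate, 1 higher and 1 lower in the high livers. The next smallest adjusted p was 0.269. At an unadjusted p under 0.05 there were 1350 probe sets (4.35%), 686 higher (2.21%) and 664 lower (2.14%). The median difference over all genes was -0.0033 log2 units, and the median standard error of a probe set was 0.059. The high and low livers failed to overlap in 1 probe set (0.00322%).

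That probe set, 1383739_at, reads LOC100909782. In the high livers it lay at 6.82 at the lowest, 6.93 at the median and 7.11 at the highest. In the low livers it lay at 7.12, 7.46 and 7.80. All 8 high livers were below all 28 low livers, although the highest of the former and the lowest of the latter nearly met. LOC100909782 was lower by 0.48 ± 0.062 (SE) log2 units, a fold of 1.40, with a 95% interval of -0.61 to -0.36 and a limma adjusted p of 0.000131. Both sets were well above the array medians, unlike Abhd3. Within the dose groups the difference of the means was -0.60 in vehicle animals and -0.50, -0.49, -0.52, -0.32 and -0.39 at the 5 rising doses. It was thus negative in each of the 6 groups, with 1 or 2 high livers behind each value. Its function is not known from the sources used here, and the table of rat genes lists it directly before Gata6.

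The other called probe set, 1382289_at, has no gene in the probe table. It lay at 7.00 at the lowest, 7.14 at the median and 7.43 at the highest in the high livers and at 6.20, 6.63 and 7.13 in the low livers. The ranges overlapped, and 4 of 8 high livers were above every low liver. The overlap came from 1 low liver, replicate 4 at 0.94 mg/kg, with 7.13. The next highest low liver, vehicle replicate 6, read 6.87, below every high liver. Replicate 4 at 0.94 mg/kg also had the lowest LOC100909782 value of the low livers, 7.12. For 1382289_at the difference was 0.54 ± 0.083 (SE) log2 units, a fold of 1.45, with a limma adjusted p of 0.00326. Within the dose groups the high livers averaged higher by 0.43 in vehicle animals and by 0.38, 0.41, 0.80, 0.64 and 0.69 at the rising doses. This call was lost in some fits with fewer animals, where the difference was also somewhat smaller. Without replicate 1 at 9.4 mg/kg, the liver with the highest Abhd3, the difference was 0.49 with a limma adjusted p of 0.0508. Without the 94.3 and 943 mg/kg groups it was 0.49 with a limma adjusted p of 0.421. LOC100909782 passed in each of those analyses.

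**Figure D2:**
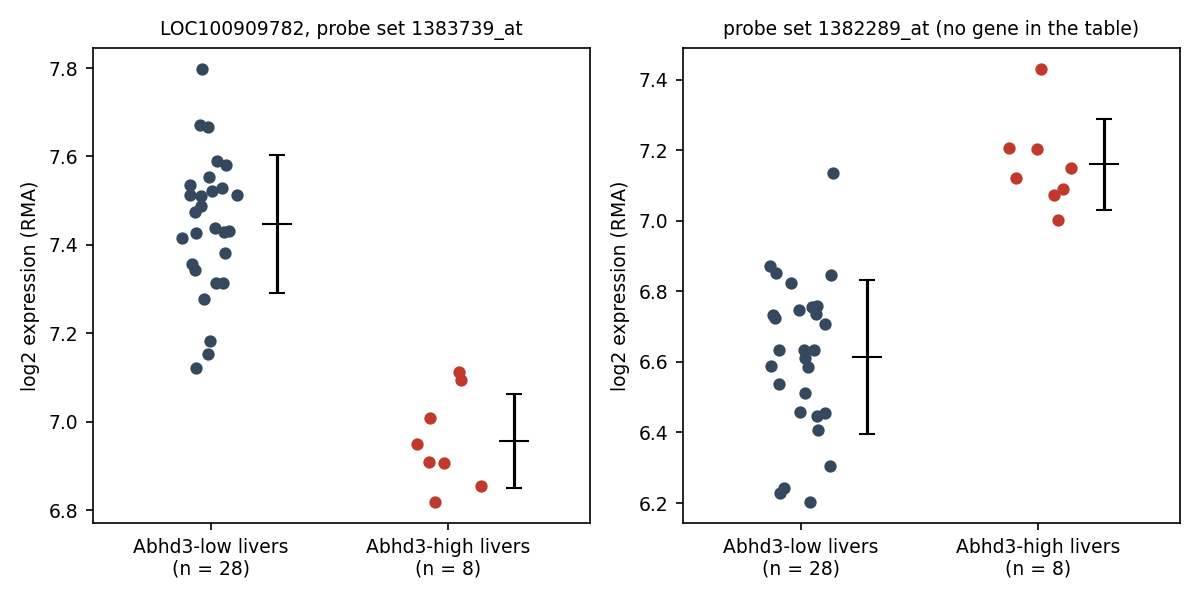
Log2 expression (vertical axes) of LOC100909782 and of probe set 1382289_at in the low livers (n = 28, dark blue) and high livers (n = 8, red), 1 point per animal, with the mean and SD of each set as a black bar beside the points. The high livers lie at 6.82 to 7.11 and the low livers at 7.12 to 7.80 for LOC100909782, and the sets overlap for 1382289_at.

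The response to dosing was compared between the sets by the product of set and dosing, over 2 high vehicle livers and 6 high dosed livers. In limma, 0 of 31040 probe sets (0%) passed, 1276 had an unadjusted p under 0.05, and the unmoderated linear model also called 0. For LOC100909782 the term was 0.14 ± 0.15 (SE, unadjusted p = 0.339 in limma), and for 1382289_at it was 0.13 ± 0.20 (SE, unadjusted p = 0.521 in limma). Only 2 high livers came from vehicle animals, so these terms have wide errors.

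Abhd3 lies near one end of chromosome 18, with 13 measured genes before it and 315 after it in the gene order of the RefSeq table. Only that order is used for the neighbours, because the sources used here name no build for the arrays. Of the 10 nearest measured genes on each side, 20 in all, 1 passed the test and 4 (20.0%) had an unadjusted p under 0.05, against 4.36% of all genes. All 4 were lower in the high livers and all 4 lay after Abhd3. On the other side, 0 of 10 reached that p in limma, and 0 of 10 passed. Over 30 genes on each side, which reaches 43 measured genes because the side before ends, the count was 5 (11.6%). Over the whole chromosome it was 13 of 328 (3.96%), and over the other chromosomes 605 of 13839 (4.37%). The count of 4 was 2 without vehicle replicate 3 or without all vehicle animals and 6 without replicate 6 at 0.94 mg/kg. In the alternatives run, every neighbour that reached that p was lower in the high livers, and in some of them 1 lay before Abhd3. Neighbouring genes can share transcripts and probes, so these counts are a description.

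LOC100909782 was the nearest measured gene after Abhd3, with 12 genes that no probe set names alone between them in the table. Gata6, which encodes a zinc finger transcription factor of endoderm and heart, came next and differed by 0.10. Rbbp8, whose product resects broken DNA ends, differed by -0.09, Cables1 by -0.03, and Riok3, an atypical kinase, by -0.04. Rmc1, a regulator of late endosomes and autophagy, differed by -0.15 ± 0.055 (SE, unadjusted p = 0.00991 in limma). Lama3, a laminin chain of basement membranes, differed by -0.19 ± 0.076 (SE, unadjusted p = 0.0204 in limma). Ttc39c differed by -0.10 ± 0.042 (SE, unadjusted p = 0.0269 in limma), but its other probe set by -0.0025. Rmc1, Lama3 and Ttc39c did not pass the adjusted test, and their high and low livers overlapped. Cabyr and the oxysterol-binding Osbpl1a, the last of the 10, differed by 0.06 and -0.02.

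On the other side, Snrpd1, a core protein of the spliceosome, was the nearest measured gene and differed by 0.04, while its other probe set differed by -0.08. Greb1l differed by -0.18 ± 0.091 (SE, unadjusted p = 0.0548 in limma), and its other probe set by -0.047. The kinase Rock1, the proteasome deubiquitinase Usp14 and the mRNA export factor Thoc1 differed by 0.01, -0.07 and 0.02. The scavenger receptor Colec12, the centrin Cetn1 and Zfp136 differed by 0.10, -0.08 and 0.09. Mtmr1, a phosphoinositide phosphatase, differed by 0.12 and F8, coagulation factor VIII, by -0.00013. None of these 10 genes passed, and their high and low livers overlapped.

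**Figure D3:**
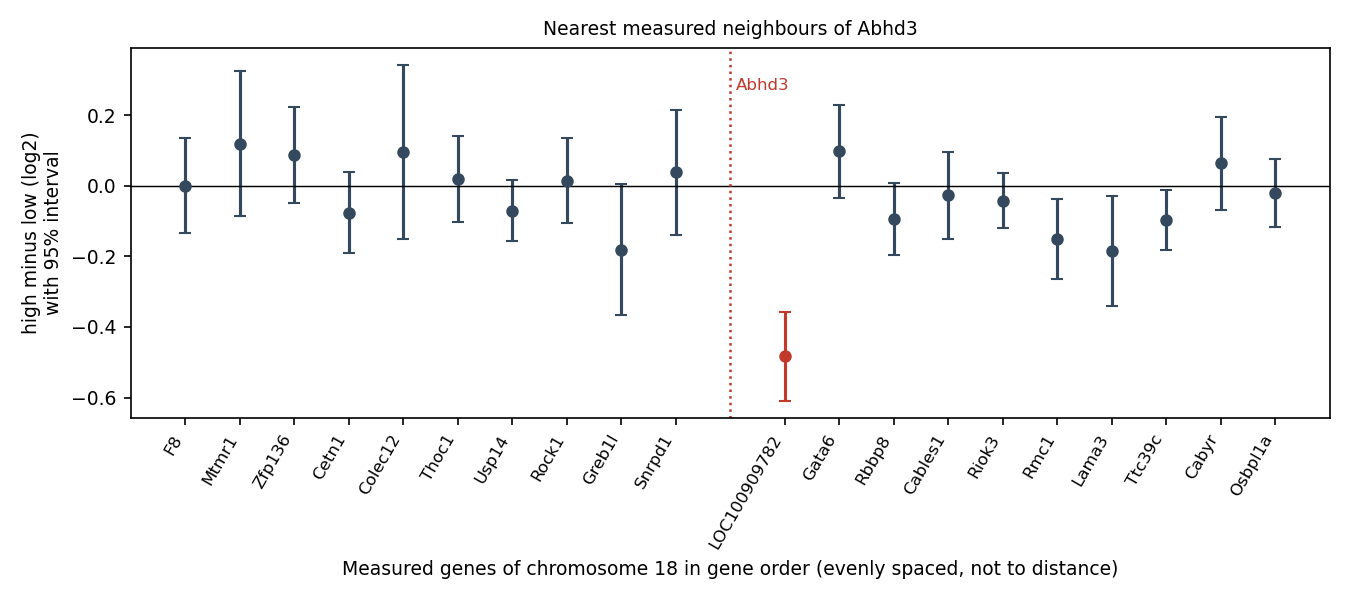
Difference between high and low livers in log2 units (vertical axis, 95% interval as bars) for the 10 nearest measured genes on each side of Abhd3 in gene order on chromosome 18 (horizontal axis, evenly spaced), with Abhd3 at the dotted line. LOC100909782, in red, lies at -0.48 and is the only gene whose adjusted p is under 0.05, and the other 19 lie between -0.19 and 0.12.

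Other members of the ABHD family did not pass the test. Of 18 measured members besides Abhd3, 4 were nominally higher and 14 nominally lower in the high livers, 0 passed in limma and 0 had an unadjusted p under 0.05, against 4.35% of probe sets. Their median difference was -0.03 log2 units, with a range of -0.10 to 0.03, against -0.0033 over all genes. Abhd5, the coactivator of adipose triglyceride lipase, differed by -0.10 ± 0.073 (SE) and Abhd6, a monoacylglycerol lipase, by -0.10 ± 0.056 (SE). Abhd1 and Abhd2 differed by -0.08 and -0.07, and Abhd4, a hydrolase of N-acyl phospholipids, by -0.02. Abhd12, a lysophosphatidylserine lipase, and Abhd16a, a phosphatidylserine lipase, differed by -0.03 and -0.06. The depalmitoylases Abhd17a, Abhd17b and Abhd17c differed by -0.03, -0.03 and 0.03. Abhd8, Abhd10, Abhd11, Abhd13, Abhd14a, Abhd14b, Abhd15 and Abhd18 lay between -0.05 and 0.03. The mean level of the 18 genes per liver was 7.09 to 7.23 in the high livers and 7.12 to 7.33 in the low livers.

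Genes that make, remodel or cleave phospholipids gave 0 calls in limma. Of 21 genes of phosphatidylcholine synthesis and remodelling, 4 were nominally higher and 17 nominally lower (1 and 20 with arrays centred on their medians), with a median of -0.04, and 2 (9.52%) had an unadjusted p under 0.05. Over all genes, 620 of 14216 (4.36%) had such a p, and 7488 were nominally lower. These were Lpcat1, a lysophosphatidylcholine acyltransferase, at -0.15 ± 0.067 (SE) and Agpat1, which makes phosphatidic acid, at -0.09 ± 0.041 (SE), whose other probe set differed by 0.0033. Pcyt2 and Pcyt1b, which make the CDP-bound head groups, differed by -0.05 and -0.08. Of 32 phospholipases and lysophospholipases, 16 were nominally higher and 16 nominally lower, with a median of -0.0019. Cytosolic phospholipase Pla2g4a differed by 0.14 ± 0.084 (SE), Pla2g4b by 0.07, the lysophospholipase Lypla2 by 0.06 and Pld3 by -0.08. The other probe set of Pld3 differed by 0.07.

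Lipid storage and oxidation genes also gave 0 calls in limma. Of 20 genes of triglyceride hydrolysis and lipid droplets, 5 were nominally higher and 15 nominally lower, and Plin3, a droplet coat protein, had the smallest p at -0.15 ± 0.060 (SE). Plin5 differed by 0.17, Cideb by -0.07 and Pnpla3 by -0.40 ± 0.23 (SE). The other probe sets of Pnpla3 differed by -0.36 and -0.085. Of 29 genes of acylcarnitine handling and medium-chain oxidation, 16 were nominally higher and 13 nominally lower (21 and 8 after quantile normalization again, 12 and 17 without vehicle replicate 4), with a median of 0.0073. The carnitine transporter Slc22a5 had the only unadjusted p under 0.05, at 0.20 ± 0.092 (SE). Cpt1a, which starts fatty acid import into mitochondria, and Acot2 differed by 0.16 each, and Crot by 0.11.

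Genes of lipid synthesis leaned towards lower levels in the high livers, and none passed. Of 15 genes of fatty acid synthesis, 15 were nominally lower with a median of -0.10, 0 passed in limma and 4 (26.7%) had an unadjusted p under 0.05. Over all genes, 4.36% had such a p and 7488 of 14216 were nominally lower. The 4 were ATP citrate lyase Acly at -0.32 ± 0.14 (SE), fatty acid synthase Fasn at -0.30 ± 0.14 (SE), Lpin1 at -0.28 ± 0.12 (SE) and malic enzyme Me1 at -0.21 ± 0.095 (SE). The other probe set of Lpin1 differed by only -0.075, while those of Fasn and Me1 differed by -0.31 and -0.26. Acly read 9.33 at the lowest, 9.67 at the median and 10.6 at the highest in the high livers and 9.47, 10.2 and 10.9 in the low livers, so the sets overlapped widely. Of 17 genes of cholesterol synthesis, 17 were nominally lower with a median of -0.16, 0 passed in limma and 0 had an unadjusted p under 0.05. Among them Hsd17b7 differed by -0.28, Msmo1 by -0.23, squalene synthase Fdft1 by -0.16 and Fdps by -0.14. The members of a list were read on the same 36 arrays, so the number that lean one way is not a number of separate observations. Leaving out 1 animal left 0 to 2 members of each of these lists nominally higher, with 2 in fatty acid synthesis without replicate 6 at 0.1 mg/kg and 2 in cholesterol synthesis without replicate 2 at 0.94 mg/kg.

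Targets of nuclear receptors and of the clock did not pass either. Among all 14216 genes, 6728 were nominally higher and 7488 nominally lower, and members of a list share the same 36 arrays. Of 12 PPARalpha targets, 10 were nominally higher and 2 nominally lower, with Cyp4a3 at 0.18 ± 0.080 (SE) and Pdk4 at 0.23 ± 0.18 (SE). The differences of these 12 ran from -0.28 to 0.23, so the largest in size was a lower one. Of 12 targets of CAR and PXR, the xenobiotic receptors, 2 were nominally higher and 10 nominally lower, with differences from -0.28 to 0.23. Por, the electron donor of cytochromes P450, was lowest among them at -0.28 ± 0.077 (SE), with a limma adjusted p of 0.993, and Alas1, the first enzyme of haem synthesis, differed by -0.25. Of 8 aryl hydrocarbon receptor targets, 4 were nominally higher and 4 nominally lower (2 and 6 without replicate 1 at 9.4 mg/kg), with Nqo1 at -0.14. Of 16 clock genes, 6 were nominally higher and 10 nominally lower (3 and 13 with centring), with Bhlhe40 at -0.49 ± 0.36 (SE), Dbp at -0.22 and Nfil3 at 0.20.

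Interferon response genes leaned towards higher levels in the high livers and none passed. Of 22 genes, 22 were nominally higher with a median of 0.18, 0 passed in limma and 0 had an unadjusted p under 0.05. Among all 14216 genes, 6728 were nominally higher and 4.36% had such a p. The 22 were read on the same 36 arrays, so they are not separate observations. Irf9, part of the interferon-activated transcription complex, differed by 0.43 ± 0.25 (SE), Mx1 by 0.43 ± 0.30 (SE), Ifi27 by 0.24 and Oas1b by 0.20. Irf9 had a median of 6.95 in the high livers, with a lowest value of 5.52, and of 6.70 in the low livers, and the sets overlapped. Without replicate 6 at 0.1 mg/kg, 17 of the 22 were nominally higher, and with arrays centred on their medians 21 were. Of 19 acute phase genes, 13 were nominally higher and 6 nominally lower (11 and 8 with centring), with a median of 0.02. Without replicate 1 at 9.4 mg/kg, 7 were nominally higher and 12 nominally lower, and Lcn2, which differed by 0.24 ± 0.22 (SE) with all animals, differed by -0.05.

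**Figure D4:**
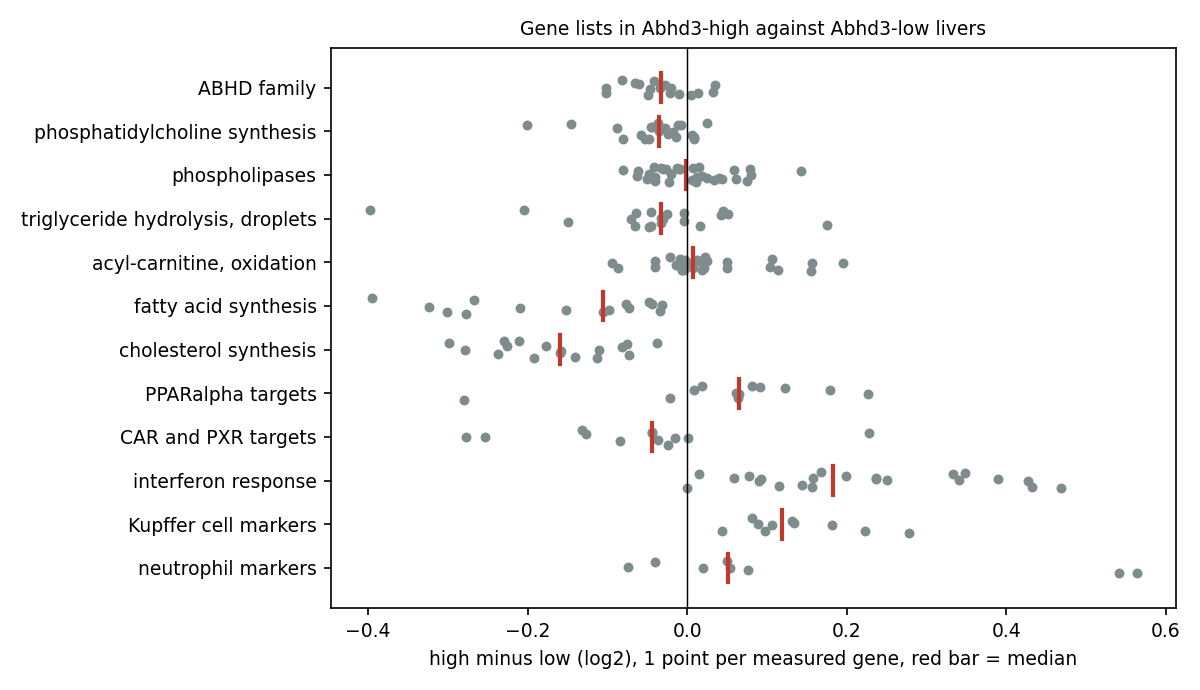
Difference between high and low livers in log2 units (horizontal axis) for the measured genes of 12 lists (vertical axis), 1 grey point per gene and a red bar at each list's median. The medians run from -0.16 in cholesterol synthesis to 0.18 in the interferon response, and none of the genes drawn passed the test.

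Both sets carried the markers of liver, and markers of other cells overlapped between them. In bulk RNA, fewer cells of a type and less RNA per cell cannot be told apart. Among all 14216 genes, 6728 were nominally higher. Markers of a list were read on the same 36 arrays, so their counts are not counts of separate observations. The mean of 14 hepatocyte markers per liver had a median of 12.96 in the high livers and 12.96 in the low livers, and 9 of the 14 were nominally higher (7 with centring). Of 10 Kupffer cell and macrophage markers, 10 were nominally higher in the high livers with a median of 0.12, and their mean level was 7.79 to 8.69 in the high livers and 7.86 to 8.67 in the low livers. Of 12 stellate cell and fibroblast markers, 11 were nominally higher with a median of 0.13, and their mean level was 6.17 to 6.92 against 5.95 to 6.80. Of 10 endothelial markers, 7 were nominally higher (9 after quantile normalization again), with Pecam1 at 0.21 ± 0.076 (SE) and the scavenger receptor Stab1 at -0.17 ± 0.062 (SE). Of 8 neutrophil markers, 6 were nominally higher, with S100a9 at 0.56 ± 0.15 (SE) and S100a8 at 0.54 ± 0.15 (SE), both with a limma adjusted p of 0.993, and the list's mean level was 3.56 to 4.32 against 3.44 to 3.88. The median of the 8 was only 0.05, with Camp at 0.08 and Csf3r at -0.07. Without replicate 1 at 9.4 mg/kg, S100a9 differed by 0.33 and S100a8 by 0.30. Of 13 lymphocyte markers, 10 were nominally higher with a median of 0.08. Markers of cholangiocytes (5 of 6 nominally higher, 2 with centring), erythroid cells (2 of 5, 1 with centring), pancreatic acini (5 of 11, 3 with centring) and adipose tissue and muscle (6 of 10) had medians between -0.03 and 0.01. The cholangiocyte count was 1 of 6 without replicate 1 at 9.4 mg/kg, without replicate 6 at 94.3 mg/kg or without the 2 highest doses. Of these 6 markers, 2 (33.3%, against 4.36% of all genes) had an unadjusted p under 0.05 in limma, in opposite directions. They were Epcam at -0.17 ± 0.065 (SE) and Spp1 at 0.27 ± 0.11 (SE). Without replicate 1 at 9.4 mg/kg the adipose and muscle count was 4 of 10, and without vehicle replicate 4 the erythroid count was 4 of 5. Without replicate 5 at 943 mg/kg, 5 of the 10 endothelial markers were nominally higher. No marker of these 10 lists passed in limma. Their part in the 2 called differences was not tested.

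Measures of array quality overlapped between the sets. Array medians were 4.61 to 4.66 in the high livers and 4.59 to 4.65 in the low livers. The difference between 3' and 5' probe sets of actin, which grows as RNA is degraded, was 1.09 to 1.51 against 0.99 to 1.41 log2 units, and that of GAPDH was -0.12 to 0.01 against -0.18 to 0.02. The median correlation of an array with the others was 0.993 to 0.995 against 0.992 to 0.995.

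Genes named only by a LOC or RGD number were left out of the following ranking. Among the others that did not pass, the smallest p-values higher in the high livers belonged to Lef1, Pstpip1 and Crybb2. Lef1, a transcription factor of Wnt signalling, differed by 0.24 ± 0.059 (SE) with a limma adjusted p of 0.863. The other probe set of Lef1 differed by 0.079. Pstpip1, a cytoskeletal adaptor of immune cells, differed by 0.25 and the lens crystallin Crybb2 by 0.19, both with a limma adjusted p of 0.985. Those lower were the membrane-type metalloproteinase Mmp16 at -0.28, the helix-loop-helix factor Hes6 at -0.29 and the TNF receptor adaptor Traf2 at -0.19, each with a limma adjusted p of 0.985. LOC100911506, left out by that rule, had a smaller p than these genes. It differed by -0.28 with a limma adjusted p of 0.863. Lef1 ranged from 3.36 to 3.94 in the high livers and from 3.14 to 3.76 in the low livers, below the array medians in both.

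The genes whose levels went most closely with the brighter Abhd3 probe set over the 36 livers, after dose group means were removed, were named by Pearson correlation as a description. LOC100909782 had the strongest value, at r = -0.79. Mmp16 and Traf2 followed at -0.59 each, then the tight junction protein Cgn and LOC100911506 at -0.58 each. The highest positive values were 0.61 for Lef1, 0.58 for Stac2, 0.58 for Pstpip1, 0.57 for the matrix protein Spon1 and 0.57 for Crybb2. Lef1, Stac2, Spon1 and Crybb2 averaged 3.54, 3.24, 3.68 and 2.96 over the 36 livers, and Mmp16 4.17, all below the array medians. Spon1 read 4.88 in replicate 1 at 9.4 mg/kg against 3.60 to 3.95 in the other high livers. Correlations within the 8 or within the 28 livers were not computed, so the part of the split in each value was not tested. The 36 points share strain and array type.

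Abhd3 was not alone in having separate levels between animals. A gap of at least 1 log2 unit, with at least 5 livers on each side, was found in 9 probe sets, Abhd3 included, against a median largest gap of 0.048 over all probe sets. Ephx2, the soluble epoxide hydrolase, was high in 7 livers, 1 of them an Abhd3-high liver and 6 Abhd3-low livers. The class II histocompatibility gene RT1-Bb was high in 15 livers, 2 and 13 of them in these sets, and the ubiquitin-like Ubd in 28, 7 and 21 of them. Retsat, a retinol saturase, was high in 24 livers (5 and 19) and Clca2 in 30 (7 and 23). Probe set 1370428_x_at, which pairs with 2 genes, was high in 21 (6 and 15) and had the widest gap, 5.21 log2 units. Probe sets 1368718_at and 1393108_at, without a gene in the table, were high in 31 (7 and 24) and 30 (5 and 25). None of the other 8 divided the livers as Abhd3 did, in the same or the opposite direction.

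**Figure D5:**
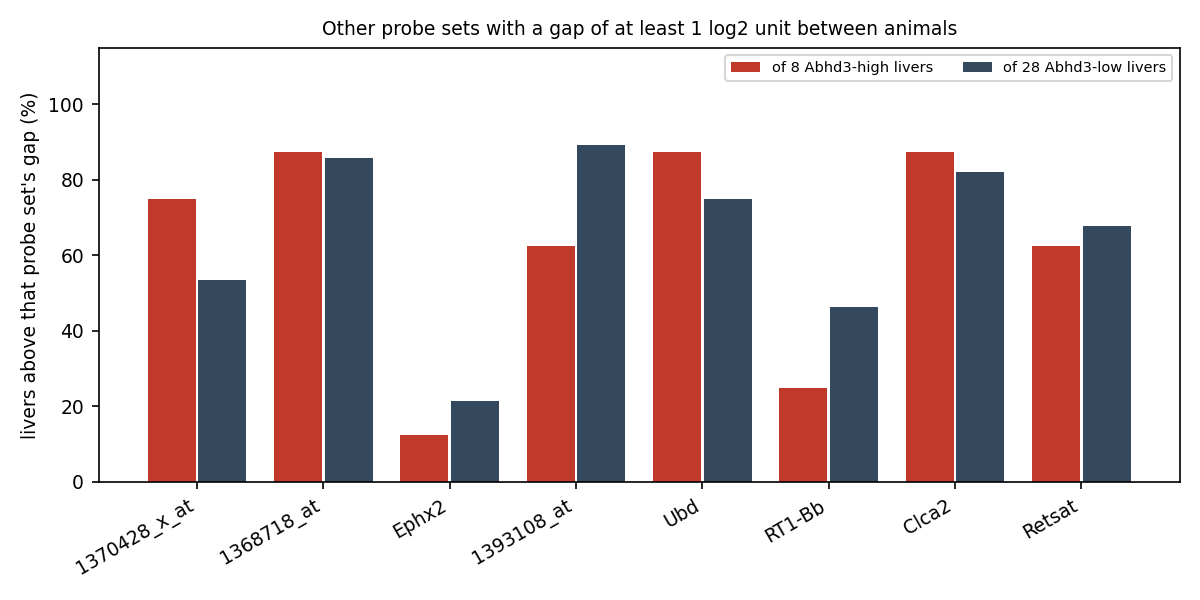
Share of the 8 Abhd3-high livers (red) and of the 28 Abhd3-low livers (dark blue) that lie above the gap of each of the other 8 probe sets with a gap of at least 1 log2 unit (vertical axis in percent, from 0). Each probe set has livers of both Abhd3 sets above its gap, as the counts of high livers for Ephx2 (1 and 6) and Ubd (7 and 21) show.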

How the data were processed

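The deposited values are log2 expression per probe set, which the authors made by RMA in affy, per the submitters' processing notes. No source used here gives versions or a genome build. The log2 range was checked on the values. After 57 array controls were left out, 31042 probe sets remained, of which 20826 pair with 1 gene, 436 with several and 9780 with none. The 36 arrays entered 1 linear model (R 4.3.3, limma 3.58.1, lmFit and eBayes) with dose group as a factor and the high or low set as a term, without a filter on signal. P-values are two-sided and adjusted by Benjamini-Hochberg over the 31040 probe sets not of Abhd3, with a threshold of 0.05. The fit was tested on simulated data with independent noise for each probe set. The planted changes were larger than the called differences outside Abhd3, so that test does not cover differences of their size. A gene is represented by its probe set with the highest mean among those naming 1 gene. Gene order, biotypes and promoters come from RefSeq (GRCr8).

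The rule for named genes took the passing genes, the 3 smallest p-values in each direction, 10 neighbours on each side, the ABHD family, up to 4 members of each list and the 5 most correlated genes in each direction. The choice of the 3 smallest p-values left out genes named only by a LOC or RGD number. The sets, lists and rules were chosen with earlier results of these data known. The number of animals limits the precision, and the p-values set each difference against the spread between animals. Alternatives covered the threshold, a continuous Abhd3 value, covariates, the signal filter, normalization, variance model, features and samples left out. No liver lay between 2.83 and 6.77, so thresholds of 4.5 and 5.5 and a split at the largest gap gave the same sets. Those runs repeat the main fit and are no separate check. Same-numbered animals of different groups correlated at -0.27 to 0.29 (median 0.0026) and other pairs at -0.35 to 0.31, so the numbers were not used as pairs.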

Additional observations from a re-analysis of the deposited data

Results flagged for a closer look

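Among 137 tests in the 8 high livers, 21 genes had 1 liver standing apart from the other 7. For independent values from a normal distribution, chance gives such a liver in about 1 of 20 groups. The genes here share the same 8 livers, the same liver was often the one flagged, and some genes were named for a small p. The count can therefore not be compared with that rate. None of these genes passed the comparison of high with low livers, and the cause of each value was not tested.

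Replicate 2 at 0.94 mg/kg held the lowest value of 7 genes, most of them interferon or macrophage genes. Irf9 read 5.52 there against 6.82 to 7.37 in the other high livers, and Ifi27 read 11.4 against 12.2 to 12.5. The Kupffer cell markers Cd5l, Csf1r and Clec4f read 7.89, 6.66 and 9.15. The leukocyte marker Ptprc read 5.33, and Pla2g4a read 5.43.

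Replicate 6 at 0.1 mg/kg was the highest for Ttc39c, at 7.96, and the lowest for Abhd1 at 7.39, Abhd6 at 7.03, Pld3 at 6.37 and Cpa1 at 3.55. Replicate 1 at 9.4 mg/kg was the highest for Lcn2, at 6.59 against 4.37 to 4.97 in the others, for Fgb at 13.8 and for Spon1 at 4.88, and the lowest for Ahr at 3.80. Replicate 6 at 94.3 mg/kg was the highest for Pnpla3, at 5.34, and the lowest for Pdk4 at 7.74 and Bhlhe40 at 4.99. Vehicle replicate 4 was the highest for Pex11a at 8.77, and replicate 5 at 0.94 mg/kg the lowest for Pstpip1 at 4.36.

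By dose group, the same measure picked out 5 values of Abhd3. As this gene made the split, they restate which liver of a group was high and are no separate result. They are the single high livers of 4 groups by the brighter probe set, with 7.17 at 0.1 mg/kg, 7.87 at 9.4 mg/kg, 7.08 at 94.3 mg/kg and 7.40 at 943 mg/kg, and this last animal by the dimmer probe set, with 3.58.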

How the results depend on the processing

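LOC100909782 passed in every alternative run, with a difference from -0.53 to -0.45 and limma adjusted p-values up to 0.0346, and from -0.51 to -0.47 when 1 animal was left out. The runs with another threshold gave the same sets as the main split and so could not change any call. The number of probe sets called was 2 in the other alternatives but 1 with 1 probe set per gene, where 1382289_at has no place, 1 without the 2 highest doses and 3 without the vehicle animals. It was 1 to 3 when 1 animal was left out, with 1 only without replicate 1 at 9.4 mg/kg and 3 only without vehicle replicate 5. The third, 1371076_at, was lower in the high livers. With the replicate number as a block the count was 2, with adjusted p-values of 0.000958 and 0.0215, and the block changed no other call. Leaving out 1 animal moved the Abhd3 difference from vehicle over -1.40 to -0.04 at 0.1 mg/kg, -0.65 to 0.60 at 0.94, -1.45 to 0.04 at 9.4, -1.47 to -0.12 at 94.3 and -1.50 to -0.08 at 943 mg/kg, and array weights gave -1.09 at 0.1, -0.26 at 0.94 and -1.03 at 9.4 mg/kg. None of these passed. At 0.94 mg/kg the sign turned without vehicle replicate 3 (0.60) or 4 (0.55) and without replicates 1 (0.27), 3 (0.28), 4 (0.30) or 6 (0.28) of that dose, and at 9.4 mg/kg without vehicle replicate 3 (0.036). The permutation p of the share of high livers stayed between 0.897 and 1. Of 135 other named genes, 0 became called, 15 changed sign in an alternative other than leaving out an animal, all with a difference of at most 0.042, and 17 when 1 animal was left out. The cause of these shifts was not tested. Limits are the 8 high livers, with 1 or 2 per dose group, and the Abhd3 signal of the low livers, which lies below the array medians. The alternatives for neighbour and list counts were chosen after seeing the data.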

Other observations

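Some of the larger differences were not covered by the naming rule, and their genes were chosen after their values were seen. Nr1i3, which encodes the xenobiotic receptor CAR, read 6.23 at the lowest, 7.09 at the median and 7.79 at the highest in the high livers and 6.63, 7.64 and 8.21 in the low livers. Its difference was -0.57 ± 0.15 (SE), with a limma adjusted p of 0.985. Pcp4l1, a small protein related to the calmodulin regulator Pcp4, differed by -0.97 ± 0.27 (SE) and, by its other probe set, by -0.78 ± 0.22 (SE), both with a limma adjusted p of 0.993. RefSeq lists Pcp4l1 and Nr1i3 next to each other on chromosome 13, with 0 genes between them, and over the 36 livers their levels correlated at r = 0.73 as a description. Probe set 1371076_at, which pairs with 2 genes, ranged from 8.04 to 9.84 in the high livers and from 8.74 to 10.8 in the low livers. It differed by -0.92 ± 0.19 (SE), had the third smallest limma adjusted p at 0.269 and correlated with Nr1i3 at r = 0.79 over the 36 livers. None of these passed with all animals, and for all 4 probe sets the high and low livers overlapped.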
